A study of Rattus norvegicus with 24 samples.

Results

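This account covers the shorter isoflurane course: whole rat brain after 5 exposures to the inhaled anaesthetic isoflurane, set against control brain. The members were taken from the sample titles, and they are 3 of the 24 arrays of the series, compared with 12 control arrays. The isoflurane 5 arrays came from rats given 1.0% isoflurane for 90 min at a time, 2 exposures per day with 3 h of recovery in between, over 2.5 days. The other exposed groups, with 3 arrays each, were isoflurane 10 (the same schedule for 5 days), halothane 5 (0.8% halothane over 2.5 days) and halothane 10 (0.8% halothane over 5 days). The controls inhaled halothane for 3 min and were then perfused with ice-cold saline, so these animals too had met a volatile anaesthetic, and the labels describe no sham exposure of matching length. Strain, sex, age and the interval from the last exposure to tissue collection are not given in the labels. The labels number the replicates without saying that each is a separate animal, so every p-value reflects the variation among these arrays, part of which may be technical.

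Isoflurane is a halogenated ether that produces unconsciousness and immobility by acting on several ion channels at once. It strengthens the chloride currents of GABA-A and glycine receptors, opens two-pore-domain potassium channels, and dampens excitatory NMDA, AMPA and nicotinic receptors as well as transmitter release. Repeated anaesthesia has been studied for lasting changes in the same receptors, in activity-dependent transcription, in stress responses and in the enzymes that handle foreign compounds. The comparison therefore asks which brain transcripts stand at a different level after the shorter isoflurane course, and the gene groups below follow those roles.

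The arrays carried rat brain RNA of similar quality in both groups. All 24 arrays had nearly the same 2% trimmed mean signal, between 150.1 and 150.2 intensity units. Signals over the log2 scale correlated between arrays at 0.957 to 0.975 within isoflurane 5, at 0.945 to 0.978 between isoflurane 5 and control, and at 0.938 to 0.978 within control, so the isoflurane 5 arrays lay as near to the controls as the controls lay to each other. Ratios of the 3' to the 5' actin probe sets, which fall towards 1 in intact RNA, were 1.46 to 1.74 in isoflurane 5 and 1.36 to 2.10 in control. Summed signals of the neuronal marker list were 8860, 8467 and 7146 in isoflurane 5, against 6575 to 8584 in control, and those of the myelin list were 12289, 11688 and 10217 in isoflurane 5, against 8940 to 12981 in control.

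Some arrays stood apart in genes of single brain regions, in a pattern read from the values after they were seen. Rgs9, a signalling regulator concentrated in the striatum, measured 119.0, 122.6 and 14.6 in isoflurane 5, against a lowest of 24.8, a median of 99.0 and a highest of 143.6 in control. Replicate 3 alone was low, at 14.7% of the control median, and replicate 3 of isoflurane 10, halothane 5 and halothane 10 also measured low, at 43.8%, 18.9% and 14.4% of it. In isoflurane 5 replicate 3 the striatal dopamine receptor gene Drd1 was at 33.9% of the control median and Gnal, the olfactory and striatal G protein, at 17.7%. Isoflurane 5 replicate 1 was not low in Rgs9, at 120.2% of the control median, but lay under it in the other 5 striatal genes examined, at 66.5% to 81.7%, and under every control in Drd1, Penk and Adora2a. Controls 5 and 11 were low in Rgs9 as well, at 29.1 and 24.8. In Drd1 they measured 147.3 and 126.3, beside a control median of 130.2 and a lowest control of 109.3. Replicate 3 of the exposed groups measured 39.4 to 71.8 in Drd1, under every control. Control 11 was also the lowest control in Gnal and Tac1, at 26.8 and 253.7. Isoflurane 5 replicate 1 was low in the hypothalamic hormone genes Avp (vasopressin), at 30.1% of the control median, and Oxt (oxytocin), at 31.5%, but not in Pmch, another hypothalamic gene, at 90.0%. The cause was not tested. Values without replicate 3 or replicate 1 are given for the genes that depend on them most.

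Bacterial spike-in controls, measured by 9 probe sets, split the 24 arrays into a high and a low level, with replicate 3 of every exposed group and controls 1, 3, 10, 11 and 12 in the high part. In isoflurane 5, replicate 3 is therefore both the array lowest in the striatal genes and the only one with a high spike-in level, and the 2 features cannot be told apart there.

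No transcript passed the test after 5 isoflurane exposures. Of 7389 probe sets, limma called 0 at an adjusted p under 0.05, or 0.0% of those tested, where a probe set was tested if it exceeded the floor of 16.5 intensity units on at least 3 arrays. At an unadjusted p under 0.05 there were 84 higher (1.14%) and 74 lower (1.0%), 158 in all, where 369.5 would pass by chance if no gene differed and the tests were independent. The median log2 fold change (isoflurane 5 over control, on values raised to the floor) was 0.0064, with 3806 probe sets higher and 3575 lower, and 90% of all values lay between -0.32 and 0.33.

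How large a difference could have been missed depends on the signal of the probe set. The 95% interval of the log2 fold change reached a median of 0.41 to either side, and 6668 intervals (90.2%) lay wholly inside a 2-fold difference in both directions. Inside a 1.5-fold difference lay 4300 intervals (58.2%). Among 780 bright probe sets, with a control mean over 500, it reached 0.27 and 98.7% of intervals stayed inside 2-fold. Among 2987 dim ones, with a control mean under 58.9, it reached 0.50 and 84.1% of intervals did. Estimated differences beyond 2-fold occurred for 13 probe sets, and 10 of these had a control mean under 58.9. A whole-brain array averages over regions and cell types, so a change in a small nucleus can fall within these limits, and fewer cells of a type cannot be told apart from less RNA per cell.

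Lpar2, a receptor for the lipid messenger lysophosphatidic acid, had the smallest p of all probe sets. Its signal was 27.6, 29.1 and 36.2 in isoflurane 5, against a lowest of 6.4, a median of 13.9 and a highest of 23.4 in control. All 3 isoflurane 5 arrays lay above every control, while only 3 of 12 controls exceeded the floor. The log2 fold change was 0.82 (SE 0.16), with a 95% interval of 0.49 to 1.15 and an adjusted p of 0.262 in limma over all probe sets, so it did not pass. Because most controls lie at the floor, this value understates the ratio of the raw signals, which averaged 31.0 ± 4.6 (SD, n = 3) in isoflurane 5 and 14.0 ± 5.1 (SD, n = 12) in control.

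The call for Lpar2 turned on the design of the fit. It passed with only the isoflurane 5 and control arrays in the fit (0.82, adjusted p 0.0337) and with the spike-in split blocked (0.85, adjusted p 0.0108). It also passed with array weights (0.77, adjusted p 0.022) and without halothane 10 replicate 3 (0.82, adjusted p 0.0232). A further pass came on the low spike-in arrays alone (0.78, adjusted p 0.000123), which lack isoflurane 5 replicate 3. That fit also lacks controls 10 and 12, the highest controls in Lpar2, at 21.6 and 23.4. Lpar2 did not pass in any other setting, with adjusted p-values up to 1, and the difference stayed between 0.70 and 1.23 in every setting that tested it. The other exposed groups each held arrays at the floor: Lpar2 measured 7.3 to 14.6 in isoflurane 10, 8.6 to 25.3 in halothane 5 and 7.3 to 29.9 in halothane 10, with log2 fold changes over control of -0.077, 0.13 and 0.21. The related receptor Lpar1 had 153.0, 149.7 and 130.9 in isoflurane 5, against 90.2 to 176.4 in control, a log2 fold change of 0.10. Enpp2, the enzyme that makes lysophosphatidic acid and is abundant in choroid plexus, had 695.3, 660.4 and 909.6 in isoflurane 5, against 348.5 to 797.8 in control, a log2 fold change of 0.31 (unadjusted p 0.103).

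Groups that did not overlap were few. All 3 isoflurane 5 arrays lay above every control for 10 probe sets (0.135% of those tested) and below every control for 2 (0.0271%). These counts depend on how many arrays are compared, since fewer arrays separate completely more easily. Of the same 7389 probe sets, with 1 isoflurane 5 array left out, 37 to 62 lay above and 29 to 34 below. On the low spike-in arrays alone, with fewer arrays in both groups, the counts were 169 and 170. Under quantile normalization or median centring, with all arrays, the counts were 10 and 6. The share that would separate if the groups did not differ was not computed, so separation is no added support for a difference in the genes named below. A single array stands beyond the controls more readily than 3 arrays together. Replicate 1 lay above every control for 294 probe sets (3.98%), replicate 2 for 420 (5.68%) and replicate 3 for 494 (6.69%). Below every control they lay for 237 (3.21%), 245 (3.32%) and 395 (5.35%). Apart from Lpar2, the probe sets above every control were those of Rbm39, Akip1, Prkcd, Nr3c2, F2r, Ift25, Irf7, Itm2b and 1 without a gene name. Of these, Ift25, Irf7, Itm2b and the unnamed one fall outside the naming rule and were named after their values were seen.

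Prkcd, which encodes protein kinase C delta, measured 189.1, 198.0 and 184.0 in isoflurane 5, against 116.0, 138.4 and 162.4 (lowest, median, highest) in control. The isoflurane 5 arrays agreed closely and none overlapped the controls, with a log2 fold change of 0.46 (SE 0.16, unadjusted p 0.00752). A second probe set of the gene gave 405.9, 373.6 and 363.6 in isoflurane 5, against 277.2, 330.1 and 400.0 in control, with overlap and a log2 fold change of 0.19.

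Nr3c2, the mineralocorticoid receptor that binds corticosterone in hippocampus, measured 57.1, 54.6 and 56.7 in isoflurane 5, against 27.2, 42.9 and 51.5 in control. The log2 fold change was 0.45 (SE 0.18, unadjusted p 0.0193), whereas the other probe set, at 88.7, 97.5 and 91.5 in isoflurane 5 against 74.3 to 105.7 in control, overlapped and gave 0.077. F2r, the thrombin receptor, measured 231.8, 234.4 and 253.0 in isoflurane 5, against 140.8, 188.9 and 225.3 in control, a log2 fold change of 0.36 (SE 0.15). Only 1 probe set of F2r was on the array, so no second reading exists for it.

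Rbm39, an RNA-binding protein of splicing, measured 178.5, 166.6 and 186.4 in isoflurane 5, against 27.7, 143.5 and 164.9 in control. The highest control nearly reached the isoflurane 5 arrays and 1 control was far below the rest, which left the log2 fold change of 0.64 with a wide SE of 0.34. Its other tested probe set gave 0.10. Akip1, a partner of protein kinase A, measured 24.5, 24.6 and 26.4 in isoflurane 5, against 8.5, 18.4 and 22.1 in control, for a log2 fold change of 0.46. Its 3 other probe sets gave 0.22, 0.14 and 0.035, each with overlapping groups.

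Itm2b, a membrane protein of neurons, measured 1492, 1587 and 1546 in isoflurane 5, against 1099, 1335 and 1457 in control. Its log2 fold change was small, 0.21 (SE 0.089). Ift25, a part of the transport machinery of cilia, gave 0.28, and Irf7, a transcription factor of the interferon response, gave 0.23 at signals of 21.9, 17.8 and 18.5 in isoflurane 5, against 5.7, 9.0 and 16.6 in control, which is close to the floor.

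**Figure D1:**
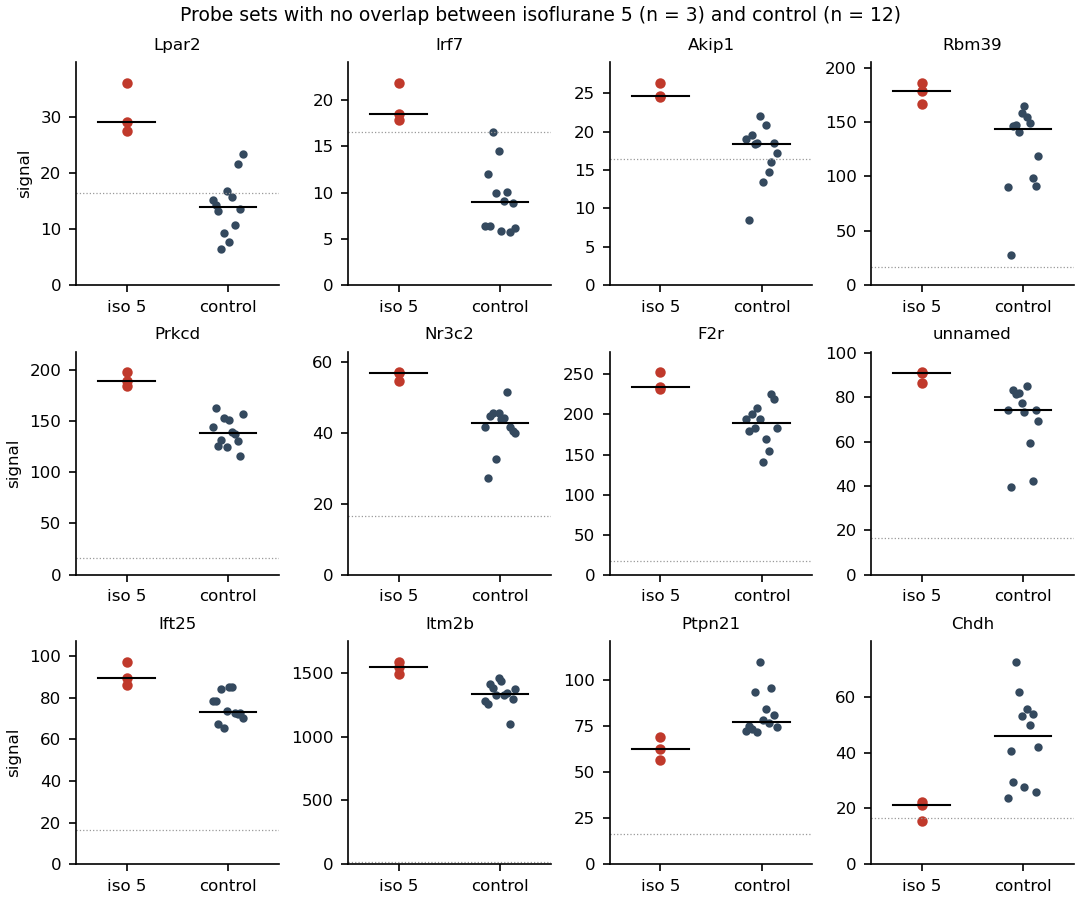
Each panel shows the signal (intensity units, linear axis from 0) of 1 probe set on every isoflurane 5 array (red, left) and control array (dark, right), with black lines at the group medians and a dotted line at the floor of 16.5. In 10 panels all red points lie above every control, and in the Ptpn21 and Chdh panels they lie below.

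Chdh, the mitochondrial enzyme that starts the oxidation of choline to betaine, was the lower probe set with the smallest p. It measured 22.3, 15.6 and 21.1 in isoflurane 5, against 23.7, 45.9 and 72.6 in control. No control lay as low as any isoflurane 5 array, though the lowest control was close. The log2 fold change was -1.09 (SE 0.30, adjusted p 1), and it ranged from -1.37 to -0.32 over the other settings, with the smallest size where the floor was raised. Chdh measured 33.8 to 48.0 in isoflurane 10 and 35.9 to 64.0 in halothane 5, above all isoflurane 5 arrays, and 20.7 to 40.1 in halothane 10, which overlapped them. Ptpn21, a cytoplasmic tyrosine phosphatase, measured 56.2, 62.4 and 68.9 in isoflurane 5, against 71.8, 77.2 and 109.8 in control, a log2 fold change of -0.38 (SE 0.16). Its other probe set, near the floor, gave 0.0021.

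The next lowest p-values on the higher side belonged to genes of varied roles, all with an adjusted p of 1. Omp, the olfactory marker protein, measured 20.6, 18.7 and 27.7 in isoflurane 5, against 9.2, 14.2 and 18.7 in control, a log2 fold change of 0.38 close to the floor. It was 0.21 without replicate 3, and passed only on the high spike-in arrays, with 1 isoflurane 5 array (0.75, adjusted p 0.0112). Hlf, a transcription factor of the circadian output, measured 58.2, 98.6 and 41.6 in isoflurane 5, against 32.1, 35.7 and 46.5 in control, so that replicate 3 overlapped and replicate 2 carried much of the log2 fold change of 0.76 (SE 0.24). A second Hlf probe set gave 0.30. Insig1, which restrains cholesterol synthesis at the endoplasmic reticulum, gave 0.44 from 415.0, 476.4 and 357.1 in isoflurane 5, against 213.5, 299.3 and 382.2 in control, but -0.071 on its other probe set.

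Apoa1, the main protein of high-density lipoprotein, measured 74.3, 73.6 and 100.5 in isoflurane 5, against 27.0, 51.0 and 91.1 in control, a log2 fold change of 0.73. Inpp5d, a lipid phosphatase of microglia and blood cells, had the largest size in the group, 0.91 (SE 0.34), from 38.9, 61.6 and 39.7 in isoflurane 5, against 9.9, 18.8 and 51.9 in control. Both overlapped the controls. Orai1, the pore of store-operated calcium entry, gave 0.41, Stx5, a Golgi fusion protein, gave 0.54, and Cit, a kinase of cell division, gave 0.49 on 1 probe set and -0.14 on the other. Syngr1, a synaptic vesicle protein, gave 0.67 through replicate 1 alone, which measured 58.5 where replicates 2 and 3 measured 24.5 and 21.6 and controls reached 26.1. Without replicate 1 its log2 fold change was 0.22.

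On the lower side, also with an adjusted p of 1, Smad9, a transducer of bone morphogenetic protein signals, measured 13.0, 27.3 and 40.4 in isoflurane 5, against 23.4, 56.3 and 93.1 in control, a log2 fold change of -1.04 (SE 0.32). Tgfbr3, the co-receptor betaglycan, gave -0.81 on 1 probe set and 0.04 on the other. Hes5, a repressor switched on by Notch, measured 22.0, 17.1 and 15.4 in isoflurane 5, against 16.4, 49.1 and 79.5 in control, a log2 fold change of -1.13, while its other probe set at 144.8, 101.2 and 113.4 in isoflurane 5 against 79.6 to 180.7 in control gave -0.21. Each of these groups overlapped.

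Cyba, a membrane subunit of the superoxide-producing NADPH oxidase, measured 26.7, 18.2 and 24.9 in isoflurane 5, against 26.4, 30.9 and 39.0 in control, a log2 fold change of -0.49. Vgf, a neuropeptide precursor that follows neuronal activity, measured 357.7, 423.2 and 253.4 in isoflurane 5, against 354.8, 441.4 and 541.2 in control. Its log2 fold change of -0.37 (SE 0.14) rested mostly on replicate 3, the array low in striatal genes, and was -0.16 without it. Vgf lay under every control in isoflurane 10 (284.4 to 341.8) and halothane 10 (260.1 to 286.6), but not in halothane 5 (360.0 to 457.3). The log2 fold changes over control there were -0.44, -0.70 and -0.10, and none passed. Cdkn2b, an inhibitor of cell cycle kinases, gave -0.65 with all arrays and -0.39 without replicate 3, and Ifng, which encodes interferon gamma, gave -0.56 at signals under 45 in both groups. Tbc1d2b, Ranbp17, Sds and Nr4a3 gave -1.01, -0.73, -1.03 and -0.99, all from control medians under 50, and the other tested probe sets of Sds and Nr4a3 gave -0.033 and -0.088.

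The GABA-A receptor, the chloride channel through which isoflurane is best known to act, showed no called subunit, as in every list here. Of 18 subunits listed, 14 were on the array and 13 were tested, with the brightest probe set taken for each gene. Gabrr2 was not tested, with signals of at most 6.5 in isoflurane 5 and 9.9 in control. The median log2 fold change over the 13 was 0.066, beside 0.0064 over all probe sets, with 8 higher and 5 lower.

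The intervals of the subunits reached a median of 0.58 to either side, beside 0.41 over all probe sets, and differed among subunits. Gabrb2, a partner of the common synaptic receptor, measured 817.3, 787.1 and 950.8 in isoflurane 5, against 567.9, 779.0 and 904.9 in control, a log2 fold change of 0.13 with an interval of -0.21 to 0.47. Gabrd, the extrasynaptic delta subunit, measured 543.7, 434.5 and 563.8 in isoflurane 5, against 330.4, 449.9 and 623.9 in control, giving 0.14 (-0.23 to 0.52). Gabra2 gave -0.0060 (-0.51 to 0.50) and Gabra3 gave -0.10 (-0.48 to 0.28). These groups overlapped throughout.

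The 2 widest intervals were those of Gabrb1 and Gabra6, and only they left a 2-fold difference possible. Gabrb1 measured 51.8, 41.0 and 98.1 in isoflurane 5, against 28.4, 102.4 and 158.0 in control, a log2 fold change of -0.63 with an interval of -1.55 to 0.29. Gabra6, a subunit of cerebellar granule cells, measured 668.1, 541.5 and 609.6 in isoflurane 5, against 166.1, 589.0 and 990.0 in control, giving 0.30 (-0.54 to 1.14). Gabra4, a thalamic and striatal subunit, was again lowest in replicate 3, at 152.9, 168.2 and 66.5 in isoflurane 5, against 63.9, 148.8 and 192.1 in control, and gave -0.20 on this probe set, or 0.22 without replicate 3, and 0.36 on another, or 0.96 without it. Gabra5, Gabrg1, Gabrg3, Gabre, Gabrp and Gabrr1 lay between -0.17 and 0.21.

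Glycine receptor subunits and two-pore-domain potassium channels were sparsely covered. Glra2 measured 44.7, 48.0 and 38.3 in isoflurane 5, against 29.7, 45.3 and 57.4 in control, a log2 fold change of 0.027. Glra1 gave 0.024 with an interval from -1.04 to 1.08 on 1 probe set and 0.45 on another, and Glra3 lay at the floor on all isoflurane 5 arrays. Kcnk1 (TWIK-1) measured 465.4, 454.7 and 393.0 in isoflurane 5, against 317.3, 427.9 and 892.5 in control, giving -0.01, and Kcnk3 (TASK-1), a channel opened by volatile anaesthetics, gave 0.20 near the floor.

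**Figure D2:**
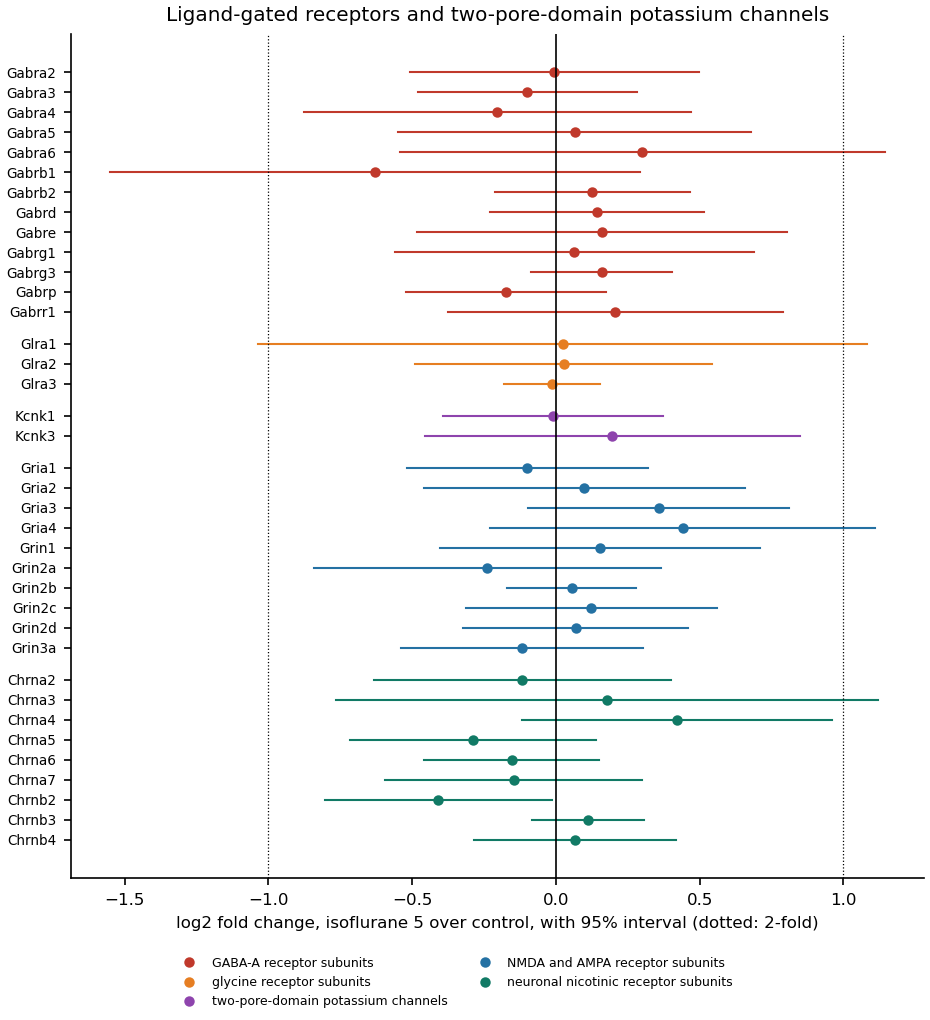
Points are log2 fold changes of isoflurane 5 over control for each tested subunit (x axis), horizontal bars are 95% intervals from limma, colours mark the receptor or channel family, and dotted lines mark 2-fold. All intervals include 0 except that of Chrnb2, and the other 4 families have medians between 0.024 and 0.093 while the nicotinic subunits have a median of -0.12.

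Excitatory receptors gave a similar picture. Over 10 NMDA and AMPA receptor subunits, the glutamate-gated cation channels, the median log2 fold change was 0.084, with 7 higher and 3 lower. Gria4 had the largest difference, 68.4, 63.4 and 43.2 in isoflurane 5, against 25.3, 35.9 and 90.3 in control, a log2 fold change of 0.44 with wide overlap. Grin2b measured 217.6, 210.5 and 204.4 in isoflurane 5, against 177.8, 199.4 and 265.3 in control, giving 0.055. Over 9 neuronal nicotinic subunits the median was -0.12. Chrnb2, the beta subunit of the main brain receptor, gave -0.41 (unadjusted p 0.0432) from signals near the floor, 25.2, 16.5 and 15.5 in isoflurane 5 against 18.1, 25.9 and 46.9 in control, and its partner Chrna4 gave 0.42.

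Among 17 voltage-gated sodium, calcium and pacemaker channel genes, 15 had a log2 fold change above 0 and 2 below, with a median of 0.053, and all 17 intervals stayed inside 2-fold. Cacna1h, a low-threshold calcium channel, gave the largest value, 0.35, near the floor. Cacna1d measured 58.7, 64.9 and 68.5 in isoflurane 5, against 40.5, 54.0 and 71.9 in control, giving 0.25. The direction was not tested for the list, whose median ran from 0.012 to 0.25 over the other settings.

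Genes of transmitter handling had medians near 0. The median was 0.061 over 11 genes of glutamate and GABA synthesis and uptake and -0.0025 over 23 genes of vesicle release, whose intervals all stayed inside 2-fold. Gad1, which makes GABA, measured 749.4, 825.7 and 876.5 in isoflurane 5, against 657.3, 784.2 and 986.1 in control, a log2 fold change of 0.0036. Unc13a, a priming factor of synaptic vesicles, had the lowest value among the release genes, -0.43, from 83.0, 34.7 and 58.4 in isoflurane 5, against 57.5, 76.4 and 91.2 in control, and it was -0.097 without replicate 2.

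Over 31 monoamine, adenosine and muscarinic receptor genes the median was -0.016, and the 2 lowest p-values were those of striatal receptors. Adora2a, the adenosine receptor of striatal output neurons, measured 123.4, 165.9 and 80.9 in isoflurane 5, against 130.4, 151.0 and 185.3 in control, a log2 fold change of -0.38. Drd1 measured 101.6, 126.1 and 44.2 in isoflurane 5, against 109.3, 130.2 and 151.2 in control, giving -0.63. Without replicate 3 these became -0.10 and -0.18.

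Activity-dependent transcription did not pass in either direction. Over 18 immediate early genes the median was -0.019, with 7 higher and 11 lower. Fos, the usual marker of recent activity, measured 358.0, 335.6 and 344.6 in isoflurane 5, against 264.7, 336.6 and 448.7 in control, a log2 fold change of 0.025. Egr4 had the smallest unadjusted p, 0.0329, at -0.36, from 225.0, 135.6 and 248.1 in isoflurane 5, against 198.7, 257.4 and 308.7 in control, and replicate 2 alone lay below every control, without which it was -0.093. Arc, a synaptic plasticity gene, gave -0.18 and Egr1, a zinc finger transcription factor, gave -0.22 from 1108, 1064 and 699 in isoflurane 5 against 831, 1092 and 1371 in control, and -0.013 without replicate 3.

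No clock or glucocorticoid gene passed the test. Per2, a core repressor of the circadian clock, measured 32.5, 42.8 and 29.1 in isoflurane 5, against 39.0, 53.2 and 69.4 in control, a log2 fold change of -0.61 (SE 0.24, unadjusted p 0.0161), so that 2 of 3 isoflurane 5 arrays lay below every control. Its partners Nr1d1 and Bmal1 gave 0.23 and -0.26, the value of Bmal1 being -0.012 without replicate 3, and the median over 9 clock and sleep genes was 0.059. The median was 0.099 over 10 genes of the glucocorticoid response, where Sgk1, a kinase induced by the hormone, measured 115.6, 151.8 and 100.8 in isoflurane 5, against 61.3, 105.0 and 174.7 in control.

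Chaperones gave a median of -0.072 over 19 genes, 14 of them lower. Hsp90b1 measured 544.1, 512.0 and 627.7 in isoflurane 5, against 548.6, 616.9 and 704.8 in control, giving -0.14, while Hspa9, the mitochondrial chaperone, gave 0.50. The 9 genes of hypoxia and cold had a median of 0.19, with 7 higher, among them Slc2a1, the glucose transporter of the blood-brain barrier, at 543.7, 559.8 and 555.5 in isoflurane 5 against 351.1, 464.4 and 605.0 in control (0.26). The cold-induced RNA-binding gene Cirbp gave 0.32 with overlap.

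Enzymes that handle drugs showed no induction that passed the test. The median was -0.029 over 17 cytochrome P450 genes, -0.077 over 22 conjugation enzymes (5 higher, 16 lower) and -0.0049 over 18 antioxidant genes. Gstm2, a glutathione transferase, measured 124.1, 109.7 and 116.8 in isoflurane 5, against 120.0, 141.1 and 154.3 in control, a log2 fold change of -0.25 (unadjusted p 0.0425), with 2 arrays below every control. Cyp2d2 gave -0.40 and Cyp2a3 gave -0.55, both with overlap. Nfe2l2, the regulator of the antioxidant programme, gave 0.37, from 28.9, 46.8 and 46.9 in isoflurane 5 against 19.9, 30.8 and 55.2 in control.

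None of the listed genes discussed in connection with anaesthesia and neurodegeneration passed the test, though intervals reached up to 1.17 in the amyloid list and 1.27 in the apoptosis list. App, the amyloid precursor, measured 1845, 1903 and 1203 in isoflurane 5, against 1111, 1660 and 2070 in control, a log2 fold change of 0.042, and Mapt, which encodes tau, gave 0.11 with an interval of -0.098 to 0.32. Sncb, beta-synuclein, gave 0.36 (unadjusted p 0.048). The median over 16 amyloid, tau and synuclein genes was 0.04. Over 13 apoptosis genes it was -0.053, with Bid, a death-promoting Bcl2 relative, highest at 0.63, from 49.1, 46.8 and 54.4 in isoflurane 5 against 13.1, 36.6 and 63.3 in control.

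Housekeeping and metabolic groups had small medians. They were 0.0091 for 23 genes of oxidative phosphorylation, 0.017 for 14 of glycolysis, -0.037 for 35 ribosomal proteins and -0.047 for 17 of cholesterol and fatty acid synthesis. Pgk1, a glycolytic kinase, measured 1840, 1744 and 1979 in isoflurane 5, against 811, 1459 and 1934 in control, giving 0.52 (unadjusted p 0.086). Signalling groups were as close to 0, with 0.011 for 20 neurotrophin genes, -0.014 for 22 neuropeptides, -0.0073 for 18 inflammatory genes, 0.0033 for 16 G protein and RGS genes, 0.044 for 6 lysophospholipid genes and -0.057 for 24 genes of BMP and TGF-beta signalling. Npy, a widespread neuropeptide, measured 284.7, 318.5 and 275.1 in isoflurane 5, against 231.0, 289.9 and 391.2 in control. In the inflammatory list, Il1b gave 0.027 and Icam1 gave -0.85 with an interval of -1.91 to 0.21.

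**Figure D3:**
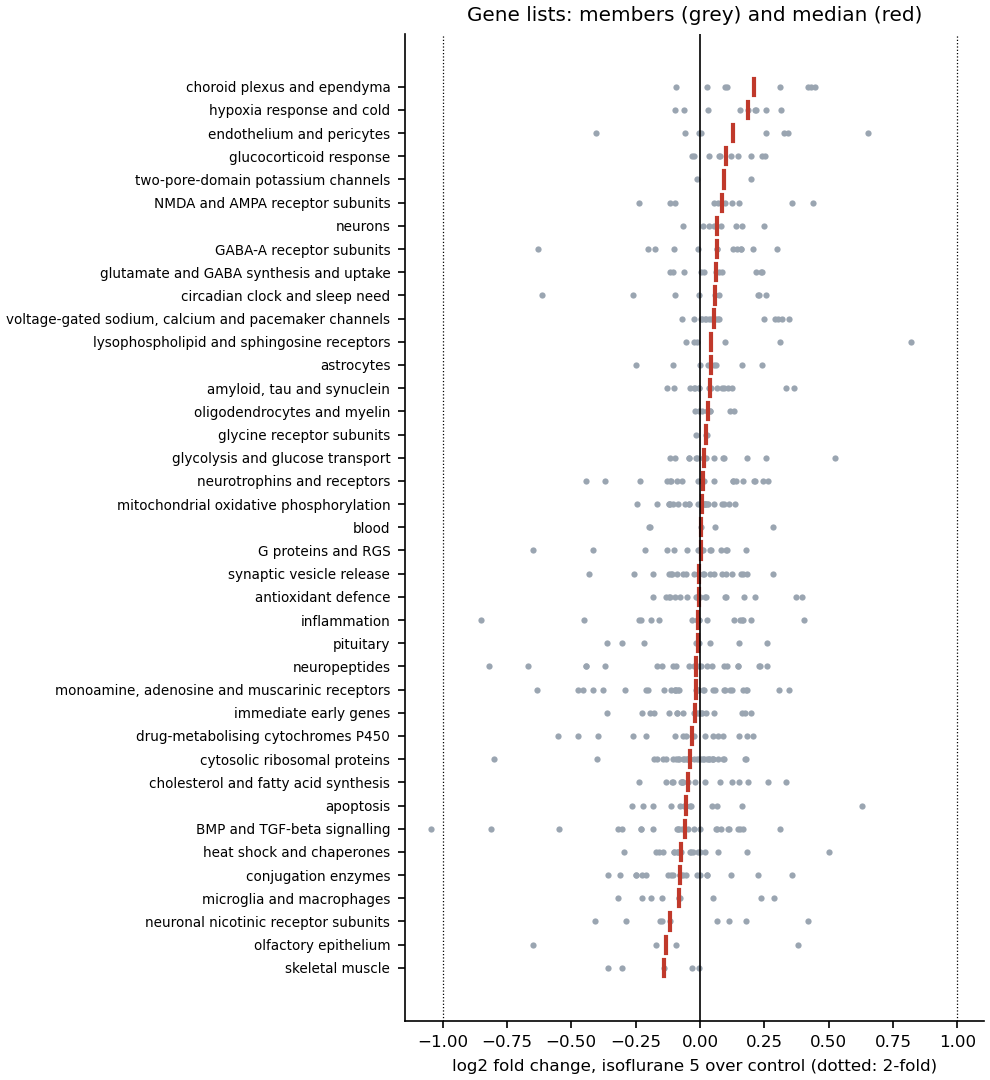
Grey points are log2 fold changes (isoflurane 5 over control, x axis) of the members of each of 39 lists, with 1 probe set per gene, and red bars are list medians. The medians run from -0.14 for skeletal muscle to 0.21 for choroid plexus, all far inside the dotted 2-fold lines.

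Among the markers of cell types and neighbouring tissues, the choroid plexus and ependyma list had the highest median. Over its 8 tested genes the median log2 fold change was 0.21, with 7 higher and 1 lower, and it lay between 0.10 and 0.49 over all other settings. Ttr, the thyroid hormone carrier that this tissue secretes into cerebrospinal fluid, measured 4347, 3506 and 5372 in isoflurane 5, against 2269, 3309 and 3952 in control. Of the 3 isoflurane 5 arrays, 2 lay above every control, and the log2 fold change was 0.43 (SE 0.20, unadjusted p 0.0373), with 0.47 on the second probe set and 0.28 on the first without replicate 3. Sostdc1 and Aqp1, both strong in choroid plexus, gave 0.45 and 0.42, or 0.22 and 0.17 without replicate 3, whereas Igf2 gave 0.11 and Kl gave -0.092. The summed signal of the list was 6251, 5331 and 7484 in isoflurane 5, against 3969 to 5958 in control, and the highest was replicate 3. It was 5343 to 6626 in isoflurane 10, 5252 to 7925 in halothane 10 and 2813 to 5097 in halothane 5. On the first Ttr probe set these groups gave log2 fold changes over control of 0.41, 0.42 and -0.58. The higher level was therefore not particular to isoflurane 5. The part of tissue content in these values was not tested.

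The other marker lists had medians of 0.068 for neurons, 0.043 for astrocytes, 0.033 for myelin, -0.082 for microglia and macrophages, 0.13 for endothelium, 0.0057 for blood, -0.0093 for pituitary, -0.13 for olfactory epithelium and -0.14 for skeletal muscle. Vwf, made by endothelium, gave 0.65 through replicate 1 alone (0.15 without it), at 65.1, 23.9 and 21.8 in isoflurane 5, against 15.9, 21.1 and 25.8 in control. Vim, a filament of immature astrocytes and vessels, measured 245.0, 163.1 and 209.3 in isoflurane 5, against 172.0, 263.0 and 338.5 in control, giving -0.25. Hbb-b1, a haemoglobin chain, measured 225.4, 184.6 and 165.9 in isoflurane 5, against 119.2, 169.9 and 373.9 in control.

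The striatal genes show how far a single array can move a mean of 3. Rgs9 had a log2 fold change of -0.41 over 3 isoflurane 5 arrays and 0.54 without replicate 3. Tac1, the precursor of substance P, measured 270.5, 436.6 and 176.5 in isoflurane 5, against 253.7, 383.0 and 539.3 in control, for -0.44 with and -0.12 without that array. Penk, the enkephalin precursor, measured 298.6, 457.6 and 215.7 in isoflurane 5, against 311.3, 413.2 and 603.7 in control, for -0.44 and -0.18. Avp gave -0.82 with all arrays and -0.35 without replicate 1.

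**Figure D4:**
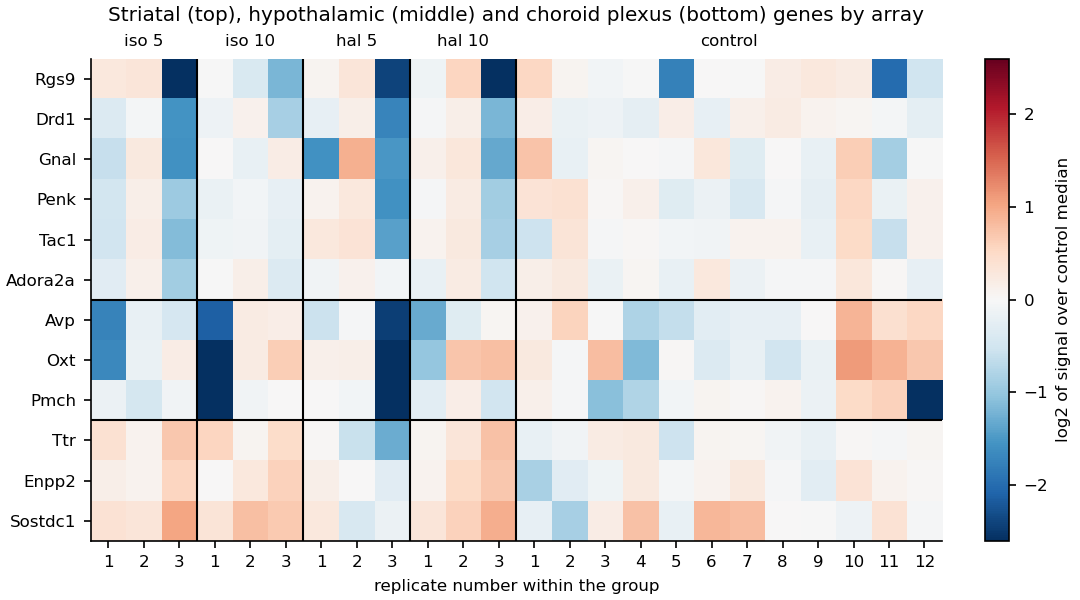
Colours give log2 of each array's signal (raised to the floor) over the control median, with genes in rows and arrays in columns grouped as isoflurane 5, isoflurane 10, halothane 5, halothane 10 and control. Replicate 3 of isoflurane 5 is low in the striatal rows, with Rgs9 at 14.7% of the control median, and replicate 1 is low in Avp and Oxt.

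Set against the other agent at the same number of exposures, isoflurane 5 differed from halothane 5 in 1 probe set of 7389 (0.0135%) by limma. Ugt2b35, a liver-type glucuronosyltransferase, measured 4.8, 4.3 and 6.0 in isoflurane 5, against 28.7, 30.6 and 74.0 (lowest, median, highest) in halothane 5. Control lay at 4.3 to 16.0. Ugt2b35 exceeded the floor on 3 of 3 halothane 5 arrays and on 1 isoflurane 10 array and on no other, so it passed the filter on low values mainly through the group where it is high. The log2 difference of -1.28 (isoflurane 5 over halothane 5, SE 0.22, adjusted p 0.0401) is the distance of halothane 5 from the floor and depends on where the floor is set. The agents were given at different concentrations. Leaving out any 1 control or halothane 10 array took the call away, with adjusted p-values of 0.0614 to 0.0665, and so did leaving out any 1 isoflurane 5 array, with 0.276 to 0.282.

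The next genes in that comparison did not pass with all arrays. Ttr measured 4347, 3506 and 5372 in isoflurane 5, against 3380, 2204 and 1350 in halothane 5, both in replicate order. The log2 difference was 1.01 (SE 0.25), with halothane 5 replicate 3 the lowest of the 24 arrays. Ttr passed without halothane 5 replicate 1 (1.33, adjusted p 0.0426) and on the high spike-in arrays, with 1 array of each agent (1.99, adjusted p 0.0309). Mx1, an interferon-induced GTPase, measured 23.8, 40.2 and 41.8 in isoflurane 5, against 8.4 to 11.2 in halothane 5, all under the floor there, with control at 6.6 to 40.9. Chdh gave -1.23, Stard8 gave -0.67, and Fut1, a fucosyltransferase, gave 0.44. Isoflurane 5 lay below all halothane 5 arrays in Chdh, a gene chosen by its low p in this same comparison.

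The longer isoflurane course differed from the shorter one in 0 probe sets (0.0%) by limma, with 222 at an unadjusted p under 0.05. Gal, the neuropeptide galanin, measured 6.9, 39.5 and 47.0 in isoflurane 10, against 8.3, 6.9 and 5.7 in isoflurane 5, so that 2 of 3 isoflurane 10 arrays exceeded the floor and no isoflurane 5 array did. The log2 difference (isoflurane 10 over isoflurane 5) was 0.92 (SE 0.22, adjusted p 0.506). It passed without isoflurane 10 replicate 1 (1.38, adjusted p 1.95e-07) and on the high spike-in arrays, where isoflurane 5 is 1 array (1.51, adjusted p 0.0025). Erbb2, a growth factor receptor, measured 33.0 to 34.3 in isoflurane 10, against 16.6, 19.7 and 18.7 in isoflurane 5, giving 0.88, and Hibadh, an enzyme of valine breakdown, measured 329.0 to 370.9 in isoflurane 10, against 206.8, 275.5 and 283.9 in isoflurane 5, giving 0.47. The groups did not overlap for Erbb2 or Hibadh, but both genes were chosen by their low p in this same comparison. The share of all probe sets that separate 3 arrays from 3 was not counted, so the separation is no added support.

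Lower in isoflurane 10 were Cyp4a1, Lpar2 and Fut1. Cyp4a1, a fatty acid hydroxylase, measured 23.3, 49.9 and 65.5 (lowest, median, highest) in isoflurane 10, against 94.7, 125.9 and 104.2 in isoflurane 5. The log2 difference was -1.34 (SE 0.28, adjusted p 0.506), which passed only without isoflurane 10 replicate 1 (-1.66, adjusted p 0.032). Isoflurane 5 lay within the control range of 64.3 to 128.0 for this probe set. Its log2 fold change of isoflurane 5 over control was 0.15, and that of a second Cyp4a1 probe set was -0.26. For isoflurane 10 over isoflurane 5, Lpar2 gave -0.90 and Fut1 gave -0.53, and in Lpar2 it was the isoflurane 5 arrays that left the control range. With all arrays none of these passed the test. Lpar2 passed on the low spike-in arrays, which lack replicate 3 of both isoflurane groups (-0.78, adjusted p 0.00144).

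Genes that earlier results of these data placed at or near a call in the other exposed groups did not pass the test after 5 isoflurane exposures. Sult1a1, a phenol sulfotransferase, measured 68.6, 56.8 and 70.8 in isoflurane 5, against 33.9, 52.0 and 77.6 in control, a log2 fold change of 0.36 (SE 0.17, unadjusted p 0.0528), and its second probe set gave 0.12. Plin2, a coat protein of lipid droplets, gave 0.28 on 1 probe set and 0 on the other, and Phaf1 gave 0.084. Alas1, the first enzyme of haem synthesis, gave 0.15 and 0.16 on its 2 probe sets. Gal and the unnamed probe set M33648_at lay under the floor on all 3 isoflurane 5 arrays. Vgf, described above, belongs to the same set and had replicate 3 below every control. Each of these groups overlapped the controls.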

How the data were processed

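Total RNA from whole rat brain was measured on 24 single-colour oligonucleotide arrays. The deposited table holds 1 linear intensity per probe set and array; the sources used here do not name the software that summarised and scaled it. The authors' scaling was kept. Of 8799 probe sets, 59 control probe sets were left out. Values under 16.5, the 25th percentile of the table, were set to 16.5 before log2, which understates differences of dim genes. The 7389 probe sets that exceeded this floor on 3 or more arrays entered a limma 3.58.1 fit (R 4.3.3) on all 24 arrays and 5 groups (eBayes with an intensity trend, two-sided, Benjamini-Hochberg over all 7389, called at an adjusted p under 0.05). The fit was tested on simulated data. The number of arrays limits the precision. Of the tested probe sets, 6018 had a single symbol, standing for 4206 genes, 267 had several and stayed unnamed, and 1104 had none.

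The members, lists and naming rule were chosen with earlier results of these data known. Named were the 12 lowest p in each direction, the 6 largest differences each way without overlap, the 3 lowest p each way between exposed groups, every measured GABA-A, glycine and two-pore-domain channel gene, up to 4 lowest p of other lists, and genes near a call in other groups. The list members Fos, Gad1, Grin2b, App, Npy, Il1b, Igf2 and Kl and the regional genes Rgs9 and Oxt lie outside this rule and were named after their values were seen. Alternatives were other normalizations, floors, filters, variance models, sample sets, spike-in blocks and each array left out. The replicate numbers were checked for pairing by correlating deviations of same-numbered arrays. For replicates 1, 2 and 3 the values were 0.0139, -0.0424 and 0.294 between isoflurane 5 and control. Between isoflurane 5 and halothane 5 they were 0.087, 0.162 and 0.356, and between isoflurane 10 and isoflurane 5 0.149, 0.296 and 0.46. Replicate 3, which had a high spike-in level in every exposed group, gave the largest value each time. Differently numbered arrays were not correlated, so these values do not decide whether the numbers pair arrays. The main fit treated the arrays as unpaired, and the replicate block was an alternative.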

Additional observations from a re-analysis of the deposited data

Results flagged for a closer look

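Ugt2b35 was the 1 probe set past the threshold between the agents at 5 exposures, with a log2 difference of -1.28 (isoflurane 5 over halothane 5) in the limma fit. Its signals were 4.8, 4.3 and 6.0 in isoflurane 5 and 28.7, 30.6 and 74.0 (lowest, median, highest) in halothane 5. No isoflurane 5 array exceeded the floor, so the value is the distance of halothane 5 from the floor, not a difference between measured levels. The probe set was above the floor on 3 of 3 halothane 5 arrays, on 1 isoflurane 10 array and on no other, so that it entered the test mainly through the group where it is high. The call was lost in 18 of 24 fits with 1 array left out. The size ranged from -2.83 with a floor at the 10th percentile to -0.84 without halothane 5 replicate 2.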

How the results depend on the processing

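The count for isoflurane 5 against control stayed at 0 in 10 of 15 other settings and became 1, Lpar2, with array weights, with only the groups of the comparison, with the spike-in split blocked and on the low spike-in arrays, and 22 on the high spike-in arrays, where isoflurane 5 is 1 array and Lpar2 was not among the calls. Leaving out arrays gave 0 to 1, the 1 without halothane 10 replicate 3. The replicate block leaves out, in effect, every control whose number no exposed array shares, so it compares isoflurane 5 with fewer controls. Under this block the count was 0, with 790 at an unadjusted p under 0.05. The share of intervals inside 2-fold ranged from 52.6% on the high spike-in arrays to 96.8% with a floor at the 40th percentile. For isoflurane 5 against halothane 5, the 1 call became 0 with controls 10 to 12 left out, either other floor, no filter, the strict filter, no intensity trend, only the groups of the comparison, the replicate block and, in a setting chosen after seeing the data, without the third replicates of all exposed groups, and 53 on the high spike-in arrays; leaving out arrays gave 0 to 2, the 2 without halothane 5 replicate 1. For isoflurane 10 against isoflurane 5, 0 became 19 on the high and 1 on the low spike-in arrays, and 0 to 2 with an array left out, the 2 without isoflurane 10 replicate 1; the replicate block left it at 0. The cause was not tested. Of 47 named probe sets, 10 had a different sign in at least 1 setting, and of 39 list medians 32 did. The 10 include Ugt2b35, M33648_at and 1 Plin2 probe set, whose main value was 0, with no sign to reverse. The number of arrays and dim signals limit these results.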
